A study of Homo sapiens with 90 samples.

Results

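The responses of A673 cells to 1 and 3 µM imazalil were compared with those to 0.001, 0.003 and 0.01 µM, to ask which transcripts already differed below the top concentration of 10 µM. The comparison used 15 of the 90 array columns of the series, namely the 6 imazalil arrays at 1 and 3 µM and the 9 imazalil arrays at the 3 lowest concentrations, chosen by chemical and concentration as labelled. No DMSO array entered the main comparison, so the reference was cells that had also received imazalil. A673 is an Ewing sarcoma line that carries the EWSR1-FLI1 fusion. The cells were plated in 96-well plates at 26000 cells per well, and all groups, vehicle wells included, received DMSO at a final 0.2% for an exposure of 24 h. Each concentration had 3 arrays, with replicate numbers 1 to 3. The series also exposed the same line to fenbuconazole and to 2,4-D at the same 9 concentrations, and 15 arrays of each served as a comparison.

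Imazalil is an imidazole fungicide that inhibits the fungal lanosterol demethylase, the counterpart of human CYP51A1, and blockade of that step in animal cells can raise sterol synthesis genes through SREBP2. Imidazoles can also bind other P450 enzymes and ligand-activated receptors such as PXR and AHR. CPT1A, the gene around which most of the results below turn, encodes carnitine palmitoyltransferase 1A of the outer mitochondrial membrane, which attaches long-chain fatty acids to carnitine so that they can enter mitochondria for oxidation. Its transcription is raised by PPAR receptors, by fasting and by long-chain fatty acids.

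Values are deposited log2 expression values of single probe sets, and differences are on that scale. Levels of different probe sets were not compared as amounts of RNA. Across the 15 arrays, the median of each array lay between 3.34 and 3.39, and any pair correlated across probe sets at 0.995 to 0.997. Markers of the Ewing line were high, with CD99 at 12.5, STEAP1 at 11.9 and NKX2-2 at 9.31, and the mean of the 7 measured markers was 9.95 both at 1 and 3 µM and at the 3 lowest concentrations. Among markers of other cells the 8 hepatocyte genes averaged 3.02 and 2.98, with ALB at 2.83. The 8 luminal breast genes averaged 4.86 and 4.87, from TFF1 at 2.74 to KRT18 at 10.8, so not all markers of other cells were low. In whole-well RNA, a change in the number of cells of a type and a change in RNA per cell cannot be told apart. The run numbers in the array labels fell as the concentration rose within each replicate number, so run order and concentration cannot be told apart either.

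CPT1A stood higher at 1 and 3 µM on 2 probe sets without overlap of the groups, and its first probe set had the smallest p of the comparison. The 4 CPT1A probe sets are named here in order of their level, the first being the brightest. On the first, the 9 arrays at the lowest concentrations read 8.32 to 8.60 (median 8.43), and the 6 arrays at 1 and 3 µM read 8.64 to 8.99 (median 8.83). All 6 lay above all 9, as they did for 15 of 54613 probe sets (0.0275%). The difference was 0.37 on the log2 scale (SE 0.06, 95% interval 0.24 to 0.49), or 1.29-fold. It was 0.36, 0.48 and 0.26 within replicate numbers 1, 2 and 3. For the probe set with the smallest p, separated groups and a shared direction within replicate numbers are no further support. By limma with the replicate number as a block, the unadjusted p was 1.33e-05 and the adjusted p over 54613 probe sets was 0.370, so CPT1A did not pass in this fit.

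The limma fit called no probe set (0% of 54613), with 3436 at an unadjusted p under 0.05 (6.29% of 54613, 1936 or 3.54% higher at 1 and 3 µM and 1500 or 2.75% lower) where 2731 would be expected without any difference. No probe set differed by more than 0.5 on the log2 scale, and the median SE was 0.07. When limma estimated the spread from the level of each probe set and guarded against outlying variances, the setting of eBayes called trend and robust, 6 probe sets passed (0.011% of 54613). CPT1A led them, at an adjusted p of 0.000428 for the first probe set and 0.0130 for the second. The other 4 were LRRFIP1, HNRNPD, ARPC2 and PRRC2C, described further on. Of the same contrast in 2,4-D and in fenbuconazole, 0 probe sets passed under either variance model, with 2108 and 2487 at an unadjusted p under 0.05 in the plain fit and 1810 and 2327 with trend and robust.

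The call for CPT1A depended on the replicate numbers included. With trend and robust and any single array left out, the first CPT1A probe set passed in each of the 15 fits, at adjusted p-values up to 0.00851. The second lost its call in 3 of the 15, at limma adjusted p-values of 0.0570 without number 2 at 1 µM and of 0.136 and 0.131 without numbers 1 and 2 at 3 µM. Leaving out a whole replicate number, 5 of 15 arrays, gave the first probe set limma adjusted p-values of 0.0580 without number 1, 0.444 without number 2 and 0.000542 without number 3, while its difference was 0.37, 0.31 and 0.42. For the second these adjusted p-values were 0.132, 0.533 and 0.00149.

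The other CPT1A probe sets gave the following values. The second ran from 6.02 to 6.47 (median 6.17) at the lowest concentrations and from 6.49 to 6.81 (median 6.68) at 1 and 3 µM. These groups did not overlap either, and the difference was 0.44 (SE 0.08). On the third, the lowest concentrations read 5.25 to 5.79 and the arrays at 1 and 3 µM 5.29 to 6.21, with overlap from 2 of the 3 arrays at 1 µM, at 5.29 and 5.61. There the difference was 0.08 at 1 µM and 0.51 at 3 µM (SE 0.09 each), and 3 µM exceeded 1 µM by 0.43 (SE 0.12), with a limma adjusted p of 0.916. The fourth read 3.54 to 4.04 and 3.59 to 4.16, and its difference of 0.08 had a 95% interval of -0.09 to 0.25.

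**Figure D1:**
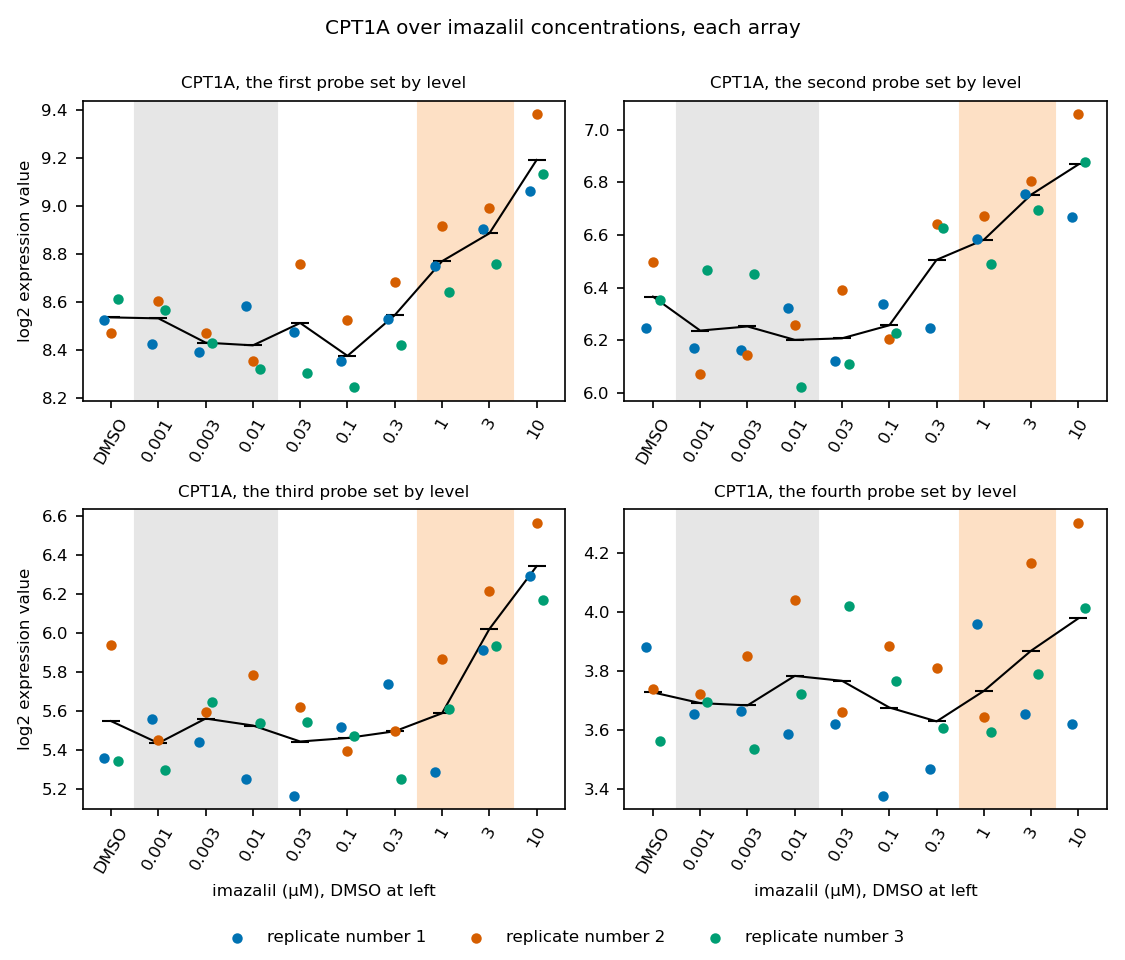
Log2 expression values (y axes) of the 4 CPT1A probe sets on each imazalil array by concentration in µM (x axes, equal steps, DMSO at left), with colours for replicate numbers, black dashes and lines for means of 3 arrays, grey shading for the 3 lowest concentrations and orange for 1 and 3 µM. On the first probe set all 6 arrays in the orange band, at 8.64 to 8.99, lie above all 9 in the grey band, at 8.32 to 8.60, whereas on the third the 3 arrays at 3 µM and 1 of 3 at 1 µM do.

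Over the concentrations, the level of CPT1A on its first probe set averaged 8.53 ± 0.10, 8.43 ± 0.04 and 8.42 ± 0.14 (SD, n = 3 each) at 0.001, 0.003 and 0.01 µM. It was 8.51 ± 0.23, 8.38 ± 0.14 and 8.55 ± 0.13 at 0.03, 0.1 and 0.3 µM. It then reached 8.77 ± 0.14 at 1 µM, 8.89 ± 0.12 at 3 µM and 9.19 ± 0.17 at 10 µM, beside 8.54 ± 0.07 in DMSO. Of the 18 arrays up to 0.3 µM, 2 read above the highest DMSO array of 8.61, at 8.76 (0.03 µM) and 8.68 (0.3 µM), both of replicate number 2. The means of 1, 3 and 10 µM lay in the order of the concentrations. The neighbouring means of 1 and 3 µM differed by 0.12 (SE 0.09), which is within their spread. On the second CPT1A probe set the mean at 0.3 µM was already 0.28 (SE 0.10) above the lowest concentrations, with 2 of 3 arrays at 6.63 and 6.64. In DMSO the second probe set averaged 6.37 ± 0.12, above the means of 0.001, 0.003 and 0.01 µM at 6.24, 6.25 and 6.20. Its highest DMSO array, at 6.495, lay above its lowest array at 1 µM, at 6.491.

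Taken by themselves, 1 µM gave a CPT1A difference of 0.31 (SE 0.07) and 3 µM one of 0.42 (SE 0.07) on the first probe set, with limma adjusted p-values of 0.611 and 0.345. Neither concentration called a probe set in the plain fit, with 3521 and 3035 at an unadjusted p under 0.05. With trend and robust, which for single concentrations was chosen after seeing the data, 3 µM called 4 probe sets (0.00732%), which were both CPT1A probe sets, HNRNPD and PRRC2C, and 1 µM called 0, with 3550 at an unadjusted p under 0.05. A p that misses the threshold at 1 µM does not show that 1 µM had no effect, and 3 µM exceeded 1 µM on the first CPT1A probe set by no more than the spread between arrays.

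A second reference that shares no array with the first gave the same size for CPT1A. Against 0.03, 0.1 and 0.3 µM, the first CPT1A probe set stood 0.35 higher (SE 0.05, limma adjusted p = 0.309), and it was the only probe set called there with trend and robust (0.00183%, adjusted p = 0.000841). The arrays at 1 and 3 µM are the same in both comparisons. In the plain fit, 0 probe sets passed and 3576 had an unadjusted p under 0.05.

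The CPT1A difference was not seen with the other chemicals at the same concentrations. On its first probe set, 1 and 3 µM against 0.001 to 0.01 µM gave -0.01 (SE 0.04) for 2,4-D, a phenoxy herbicide, and -0.07 (SE 0.06) for fenbuconazole, a triazole fungicide that also acts on lanosterol demethylase. The test of the difference between chemicals gave 0.37 (SE 0.07, 95% interval 0.23 to 0.52) for imazalil minus 2,4-D and 0.44 (SE 0.08, 0.27 to 0.61) for imazalil minus fenbuconazole. Their limma adjusted p-values were 0.264 and 0.279 in the plain fit and 0.0201 and 0.0310 with trend and robust, where CPT1A was the only probe set called in each (0.00183%). In the plain fit these tests called 0, with 3364 and 2852 at an unadjusted p under 0.05. The values of the 3 chemicals were normalized separately, so only differences within a chemical enter this test. Its imazalil arrays are those on which CPT1A had the smallest p, so it is not independent of the main comparison. Of the 10 higher genes with the smallest p, 10 had an unadjusted limma p under 0.05 against 2,4-D and 9 against fenbuconazole. Among the 10 lower genes, 10 and 8 did.

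**Figure D2:**
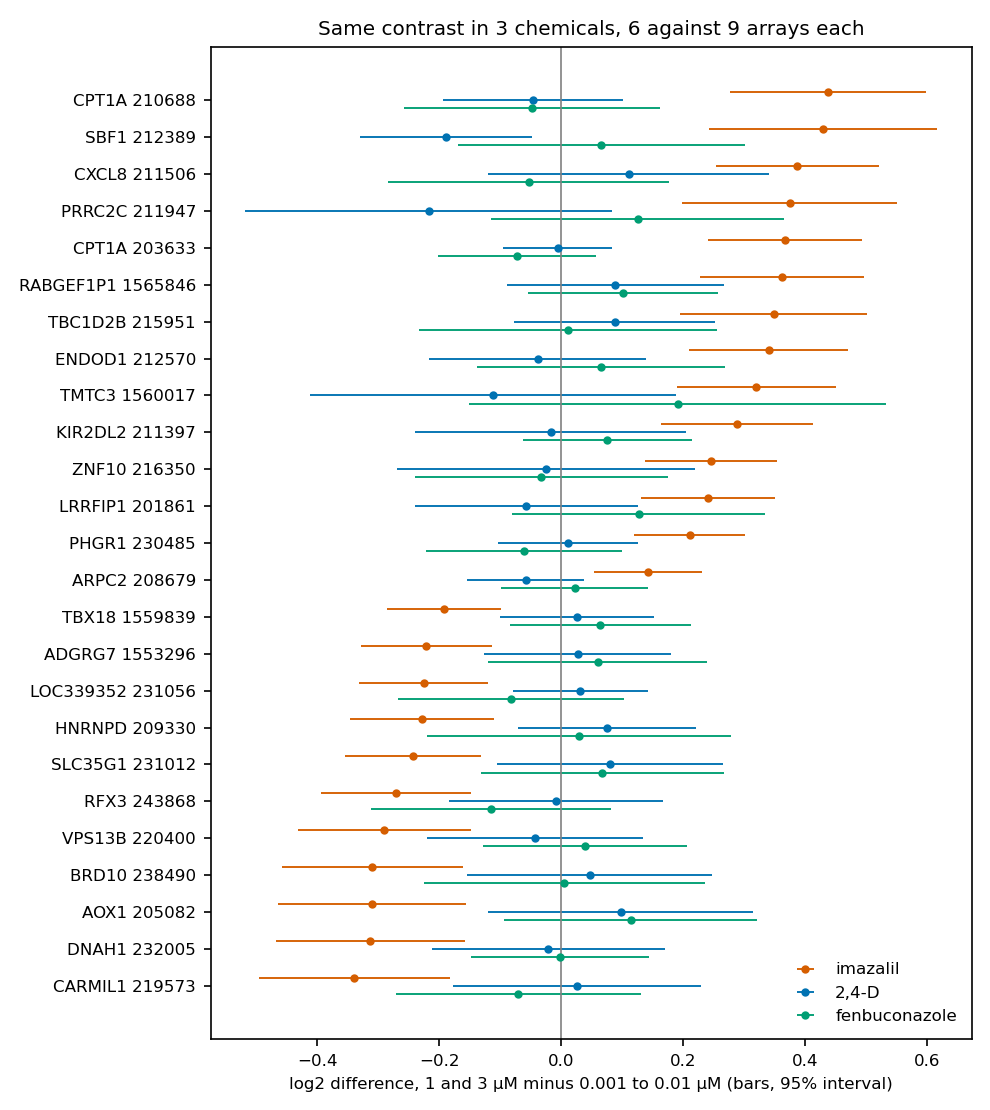
Log2 difference of 1 and 3 µM minus 0.001 to 0.01 µM (x axis) for named probe sets (y axis) in imazalil (orange), 2,4-D (blue) and fenbuconazole (green), points with 95% intervals from limma with 6 against 9 arrays per chemical. The probe sets were chosen on the imazalil values, so the orange points lie away from 0 by selection, and the blue and green CPT1A points lie between -0.07 and -0.01.

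Of the 6 probe sets that passed at 10 µM against the same 9 arrays in a limma fit of all 30 imazalil columns, 3 belonged to CPT1A, and these were the ones with the largest part of their change already at 1 and 3 µM. CPT1A rose by 0.73 at 10 µM (SE 0.08, adjusted p = 7.4e-05) on the first probe set, and 1 and 3 µM stood at 50.2% of that. For the second the share was 68.6% and for the third 35.6%. Against DMSO, the second stood 0.50 higher at 10 µM, beside 0.64 against the lowest concentrations. A probe set to which the annotation gives no single gene symbol rose by 0.60 at 10 µM and stood at 0.19 (SE 0.09) at 1 and 3 µM. The differences at 10 µM and at 1 and 3 µM that enter these shares have the 9 reference arrays in common.

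TXNIP, which encodes thioredoxin interacting protein, a brake on glucose uptake transcribed under MondoA, fell by 0.68 at 10 µM on the second brightest of its 3 probe sets (SE 0.08, adjusted p = 0.000565). At the lowest concentrations it read 6.92 to 7.45 (median 7.18) and at 1 and 3 µM 6.85 to 7.29 (median 7.10). The groups overlapped, and the difference was -0.09 (SE 0.07, 95% interval -0.24 to 0.05, limma adjusted p = 0.855), or 13.8% of the difference at 10 µM. It was -0.01 at 1 µM and -0.18 at 3 µM (SE 0.08 each). Directly compared, 10 µM lay 0.59 below 1 and 3 µM (log2 difference -0.59, SE 0.09, adjusted p = 0.0377 by limma), a contrast added after the values were seen, in which TXNIP was the only probe set called. At 1 and 3 µM the brightest TXNIP probe set stood at -0.16 and the dimmest at -0.04.

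EGR1, an immediate early transcription factor induced through ERK, fell by 0.55 at 10 µM on the dimmest of its 3 probe sets (SE 0.09, adjusted p = 0.0341 by limma). Its values at the lowest concentrations were 6.34 to 6.88 (median 6.58), and those at 1 and 3 µM were 6.43 to 6.78 (median 6.51), inside that range. The difference of -0.05 (SE 0.07) had a 95% interval of -0.20 to 0.10, which leaves out the size seen at 10 µM. On the brightest EGR1 probe set it was -0.16 (SE 0.07), with -0.07 at 1 µM and -0.24 at 3 µM (SE 0.09 each), and an adjusted p of 0.776 by limma.

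Other genes that respond to stress or nutrients lay near 0. ARRDC4, an arrestin-domain relative of TXNIP, was at -0.09 (SE 0.10), CHAC1, a glutathione-degrading enzyme under ATF4, at -0.09 (SE 0.06) and TRIB3, a pseudokinase under ATF4, at 0.00 (SE 0.06). At 10 µM against the lowest concentrations the same genes stood at -0.36, -0.41 and -0.29. ETV4, an ETS factor under ERK, was at 0.03, RORA, a nuclear receptor of the clock, at 0.02 and PDK4, a kinase that restrains pyruvate oxidation, at -0.06. Of these 6 genes the smallest limma adjusted p was 0.846, and the signs for TRIB3, RORA and ETV4 turned in other settings given in the closing section. At 10 µM, ETV4, RORA and PDK4 averaged 5.44, 3.34 and 3.03, beside 5.80, 3.15 and 3.01 at the lowest concentrations.

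**Figure D3:**
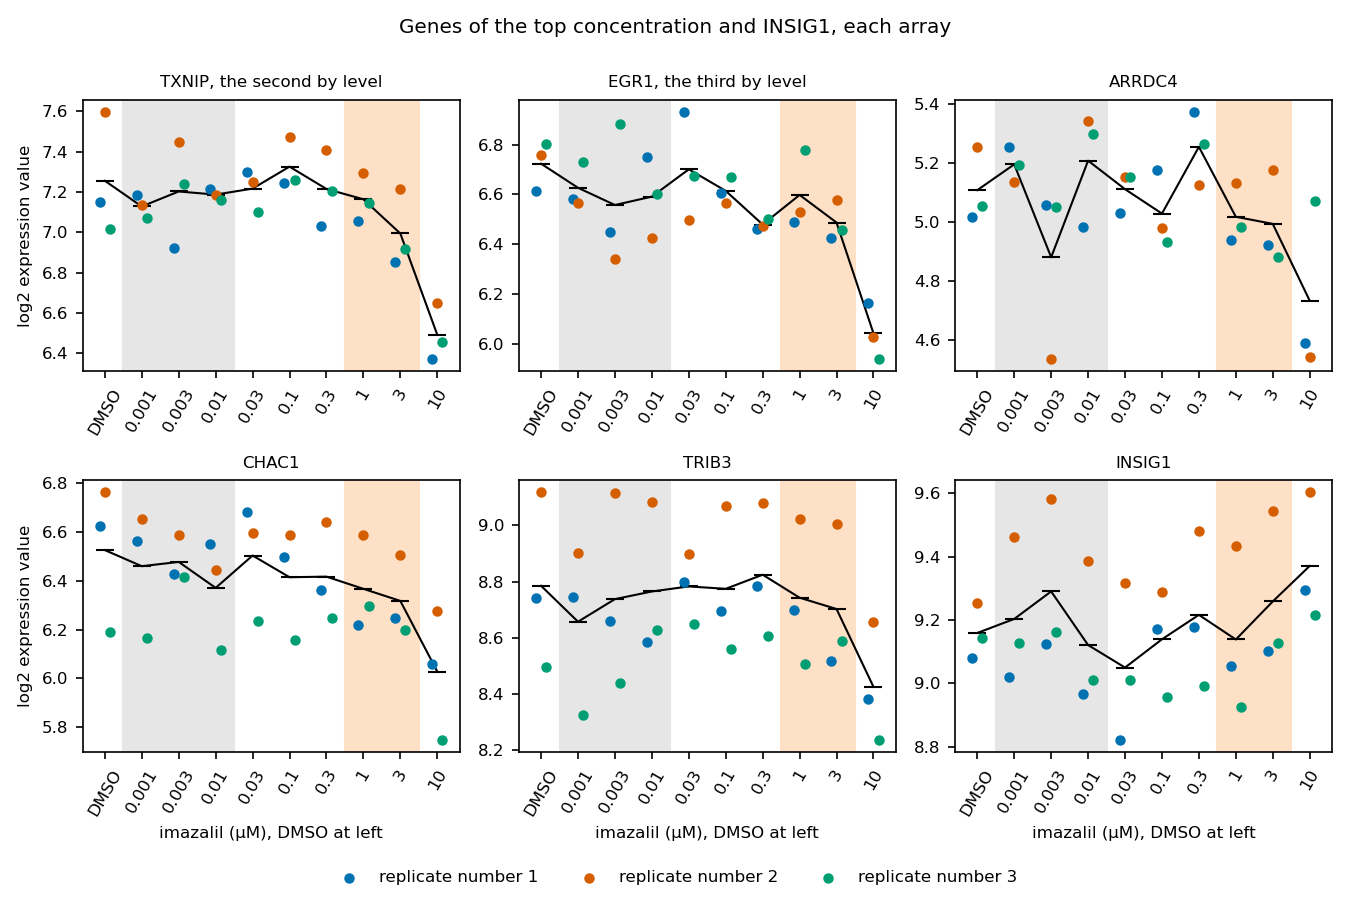
Log2 expression values (y axes) of TXNIP, EGR1, ARRDC4, CHAC1, TRIB3 and INSIG1 on each imazalil array by concentration in µM (x axes, equal steps), with colours for replicate numbers, black dashes and lines for means, grey for the lowest 3 concentrations and orange for 1 and 3 µM. For TXNIP the orange band spans 6.85 to 7.29, overlapping the grey band at 6.92 to 7.45, while the 10 µM arrays lie at 6.37 to 6.65.

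The sterol genes did not stand higher. CYP51A1, the human lanosterol demethylase, read 9.72 to 9.96 at the lowest concentrations and 9.60 to 9.94 at 1 and 3 µM, a difference of -0.01 (SE 0.05, 95% interval -0.12 to 0.10). HMGCS1, which makes HMG-CoA, was at -0.08 (SE 0.05) and INSIG1, a sterol-sensing brake on SREBP, at -0.01 (SE 0.05). The signs of CYP51A1 and INSIG1 turned in other settings given in the closing section. Of 19 measured genes of cholesterol synthesis and uptake, 4 were higher and 15 lower, with a median of -0.03, where the median of all 19774 genes with 1 probe set each was -0.00 and 48.8% were higher. At 10 µM the median of this list was 0.03 against the lowest concentrations and 0.07 against DMSO, with 0 of 19 lower than in DMSO. Of all 19774 genes, 9872 were lower at 10 µM than in DMSO, with a median of 0.00.

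Receptor targets gave no call. CYP1A1 and CYP1B1, P450 genes induced through AHR, were at -0.06 (SE 0.07) and 0.09 (SE 0.07). ABCB1, a drug efflux pump that PXR can induce, was at -0.13 (SE 0.06) at a level of 2.37, under the median probe set level of 3.34. Of 9 measured genes of the AHR list 5 were higher, and of 9 of the PXR and CAR list 3 were higher, with medians of 0.01 and -0.02.

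The other genes of fatty acid oxidation lay on both sides of 0. Of 19 measured PPAR target and fatty acid oxidation genes, 9 were higher and 10 lower, with a median of -0.01, and 3 had an unadjusted p under 0.05, all higher, where 5.45% of all genes did. Besides CPT1A these were ANGPTL4, a secreted lipase inhibitor, and SLC25A20, the carnitine-acylcarnitine carrier of the inner membrane, named after their values were seen. ANGPTL4 ran from 4.11 to 4.69 at the lowest concentrations and from 4.22 to 4.84 at 1 and 3 µM, with a difference of 0.21 (SE 0.09, limma adjusted p = 0.767). SLC25A20 ran from 5.08 to 5.51 and from 5.33 to 5.74, with a difference of 0.15 (SE 0.07, limma adjusted p = 0.791). Both pairs of groups overlapped. ANGPTL4 averaged 4.39 at 1 µM and 4.64 at 3 µM, beside 4.49 at 0.001 µM and 4.42 at 0.3 µM. SLC25A20 averaged 5.41 at 1 µM and 5.54 at 3 µM, beside 5.48 at 0.3 µM. Neither mean at 1 µM thus exceeded that at 0.3 µM. CPT2, the inner membrane partner of CPT1A, was at -0.03, ACADVL, a first enzyme of long-chain oxidation, at -0.06 and the lipid droplet gene PLIN2 at -0.04.

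Other lists were described by counts. MondoA and ChREBP with their targets had the lowest median, -0.08, with 3 of 7 higher. TXNIP at -0.16 on its brightest probe set and MLX, the dimer partner of MondoA, at -0.11 (SE 0.05) had the largest differences in it. Of 9 p53 targets 1 was higher, with a median of -0.06, and the members that differed most were ZMAT3, an RNA-binding target, at 0.19 and BBC3, a cell death gene, at -0.13. A673 lacks functional p53. Of 15 S phase genes 1 was higher, with a median of -0.06 and the medians within replicate numbers at -0.05, -0.07 and -0.06. Against 0.03 to 0.3 µM the S phase median was -0.02. At 10 µM against DMSO it was -0.00, with 8 of 15 lower. The largest S phase differences at 1 and 3 µM were CCNE1 and CCNE2, the cyclins E, each at -0.09 (SE 0.07). None of the 15 had an unadjusted p under 0.05.

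Of 19 unfolded protein response genes 1 was higher, with a median of -0.04, and of 23 genes of the ATF4 amino acid response 7 were, with a median of -0.05. The lists with the highest medians were hepatocyte markers at 0.05, luminal breast markers at 0.03 (5 of 8 higher) and NRF2 targets at 0.02 (10 of 14 higher). Hepatocyte markers were higher for 6 of 8 genes, SERPINA1 at 0.15 and TTR at 0.12 having the largest differences among those higher, at levels near 3 that lie under the median probe set. The lower hepatocyte markers TF and APOA1 were at -0.12 and -0.01. The luminal markers with the largest differences, ESR1 and EPCAM, were lower, at -0.20 and -0.11. The 5 higher luminal markers lay between 0.02 (KRT18) and 0.09 (TFF1). The NRF2 targets OSGIN1 and AKR1C1 were at 0.11 and 0.09. Of 27 lists with 317 measured genes, 0 members passed over all probe sets in the plain limma fit, and CPT1A passed with trend and robust. Genes of a list share arrays and often regulators, so these counts are not independent.

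**Figure D4:**
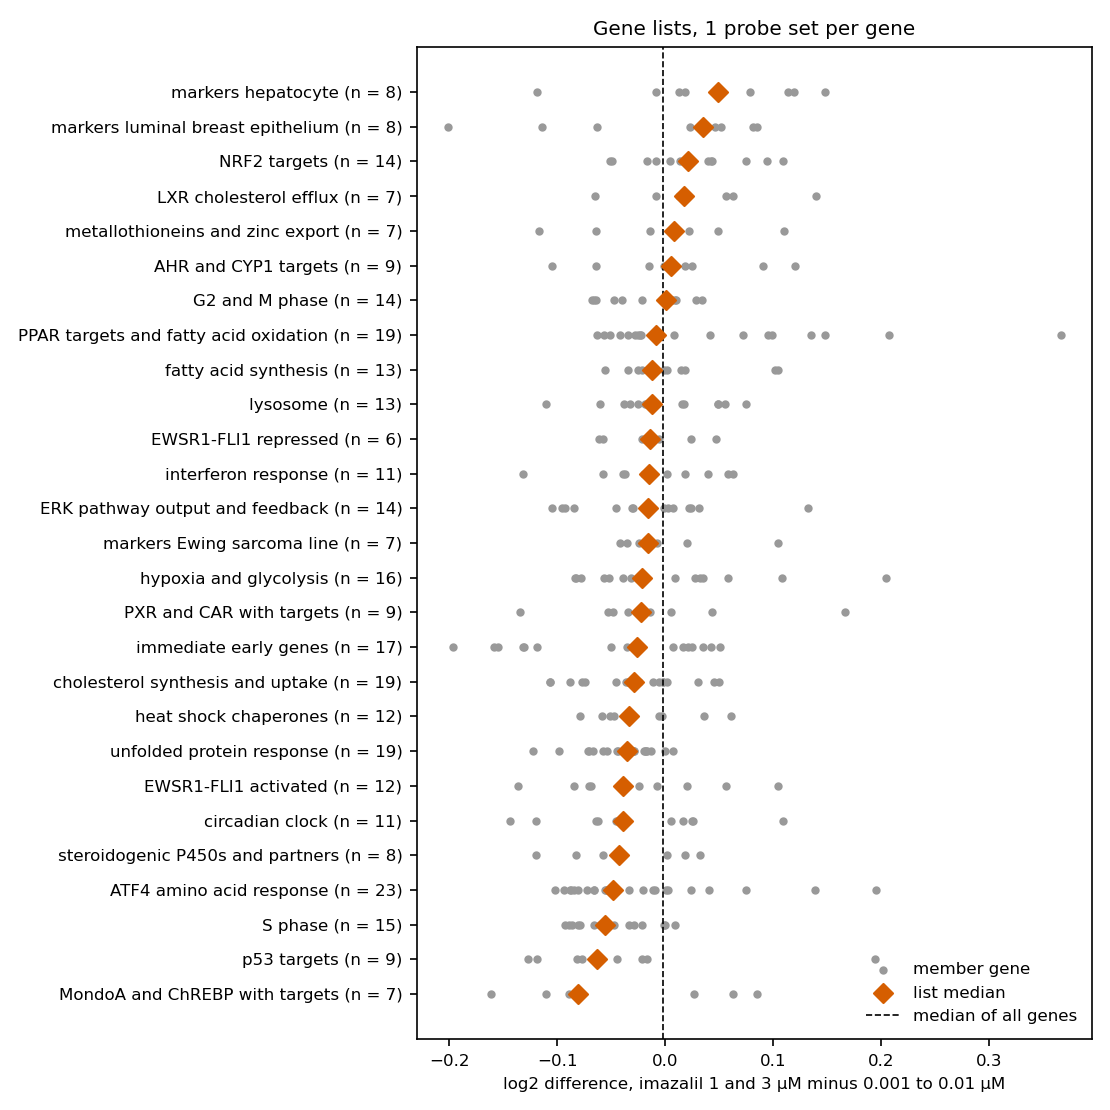
Log2 difference of imazalil 1 and 3 µM minus 0.001 to 0.01 µM (x axis) for the measured members of each gene list (grey points, 1 probe set per gene), with the list median (orange diamonds) and the median of all genes (dashed line at -0.00). List medians lie between -0.08 and 0.05, and the CPT1A point at 0.37 in the PPAR list is the farthest from 0.

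Apart from CPT1A, the 9 other genes with the smallest p among those higher were CXCL8, RABGEF1P1, ENDOD1, TMTC3, PHGR1, KIR2DL2, SBF1, TBC1D2B and ZNF10. The 10 among those lower were RFX3, SLC35G1, CARMIL1, LOC339352, BRD10, ADGRG7, TBX18, VPS13B, DNAH1 and AOX1. Sizes ranged from 0.21 to 0.43 among the 10 higher and from 0.19 to 0.34 in size among the 10 lower, and none passed (limma adjusted p 0.370 to 0.607). In each set, 4 of 10 lay under the median probe set level. Being picked by small p, they agree in direction within all 3 replicate numbers, and this is no support for them. At 10 µM against DMSO, on arrays not used for picking them, 8 of 10 and 6 of 10 had the same sign. Of all 19774 genes, 9872 were lower in that contrast, so these counts give little support. The 8 include CPT1A. Across all 19774 genes, the differences at 1 and 3 µM correlated with those at 10 µM against DMSO at r = 0.008. For the 12381 genes at or above the median level r was 0.024. With the same contrast over all genes, r was -0.083 for 2,4-D and -0.011 for fenbuconazole.

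CXCL8, the neutrophil chemokine IL-8, read 4.11 to 4.82 (median 4.51) at the lowest concentrations and 4.51 to 5.13 (median 4.98) at 1 and 3 µM. The groups overlapped, and the difference was 0.39 (SE 0.06, limma adjusted p = 0.370). At 10 µM against DMSO it stood at -0.00, and the brighter CXCL8 probe set gave 0.10 (SE 0.06). ENDOD1, an endonuclease-domain gene, read 5.24 to 5.75 and 5.85 to 5.97 without overlap, and differed by 0.34 (SE 0.06), with 0.11 (SE 0.06) on its brighter probe set. TMTC3, a mannosyltransferase of the endoplasmic reticulum, read 5.78 to 6.31 and 6.27 to 6.54 and differed by 0.32 (SE 0.06), with 0.03 and 0.05 on its brighter probe sets. Among those lower, CARMIL1, a regulator of actin capping, read 4.72 to 5.19 and 4.37 to 4.97 and differed by -0.34 (SE 0.07), with -0.06 on the next brightest of its probe sets. AOX1, aldehyde oxidase, was at -0.31 (SE 0.07) and at -0.06 on its brighter probe set.

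Such disagreement between probe sets was common in these genes. Of the 20 genes and the 4 further ones that passed with trend and robust, 21 had another probe set, and in 2 of them, CPT1A and TBX18, another one had an unadjusted p under 0.05 in the same direction. In 15 a brighter probe set of the gene existed.

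**Figure D5:**
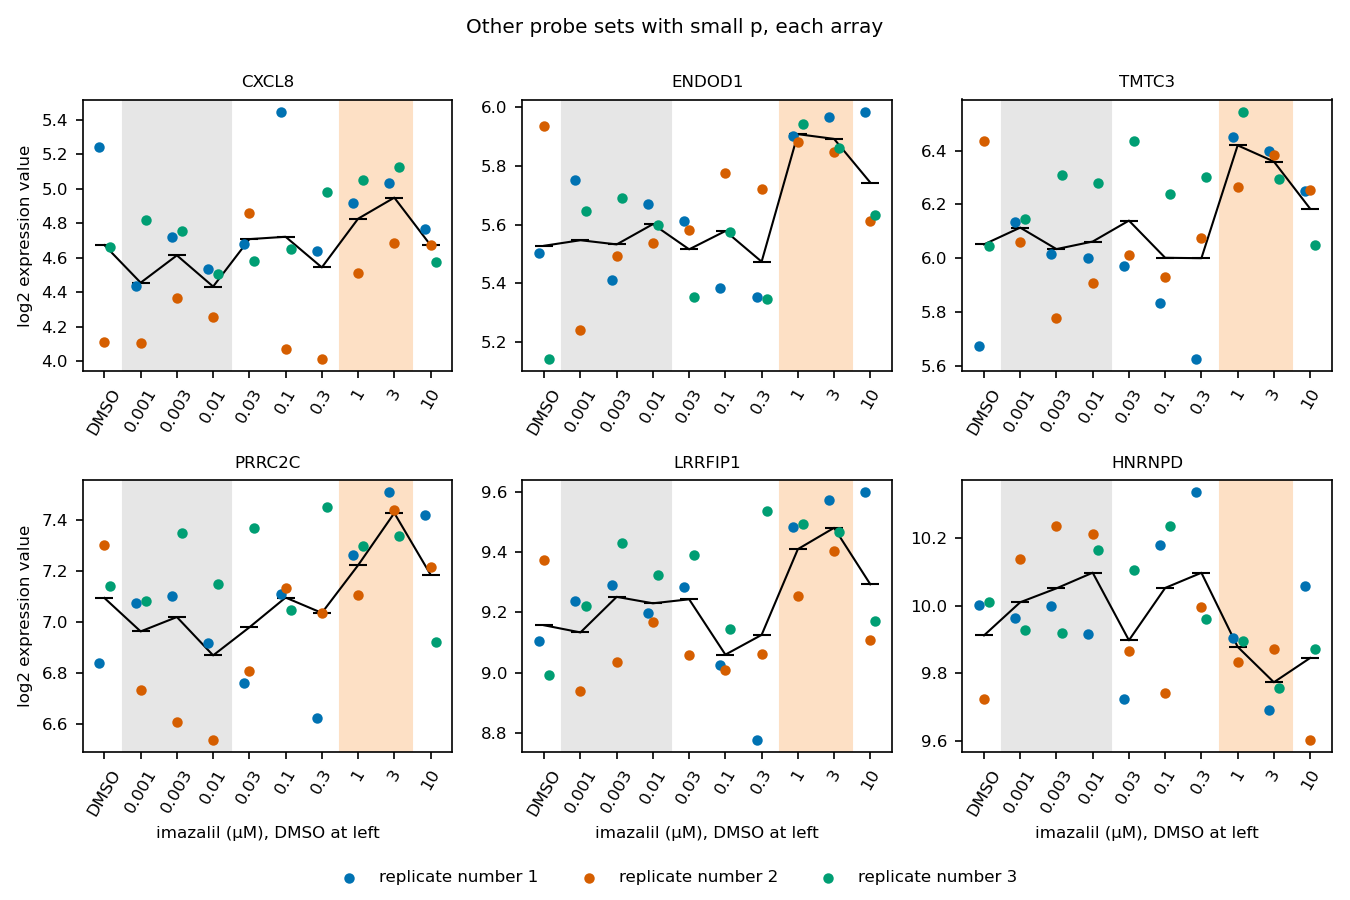
Log2 expression values (y axes) of CXCL8, ENDOD1, TMTC3, PRRC2C, LRRFIP1 and HNRNPD on each imazalil array by concentration in µM (x axes, equal steps), with colours for replicate numbers, black dashes and lines for means, grey for the lowest 3 concentrations and orange for 1 and 3 µM. For ENDOD1 the orange band at 5.85 to 5.97 lies above the grey band at 5.24 to 5.75, and for HNRNPD the orange band at 9.69 to 9.90 lies below the grey band at 9.92 to 10.24.

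The 4 genes that passed with trend and robust beside CPT1A were named after their values were seen, and their calls were less stable than that of the first CPT1A probe set. None of the 4 passed in 4 of the 15 fits with 1 array left out or without the replicate block, where the first CPT1A probe set did. Without replicate number 1 or 2, neither these 4 nor CPT1A passed. LRRFIP1, an actin- and nucleic acid-binding protein, ran from 8.94 to 9.43 at the lowest concentrations and from 9.25 to 9.57 at 1 and 3 µM, and the difference was 0.24 (SE 0.04 in that fit, adjusted p = 0.0205). PRRC2C, a proline-rich RNA-binding protein, ran from 6.54 to 7.35 and from 7.11 to 7.51, with 0.37 (SE 0.07, adjusted p = 0.0478). ARPC2, a subunit of the Arp2/3 actin complex, ran from 11.61 to 11.87 and from 11.76 to 11.98, with 0.14 (SE 0.03, adjusted p = 0.0359). HNRNPD, the AU-rich element-binding protein AUF1, ran from 9.92 to 10.24 and from 9.69 to 9.90 without overlap, with -0.23 (SE 0.04, adjusted p = 0.0359). The brightest other probe sets of these genes gave -0.03 for LRRFIP1, -0.06 for PRRC2C, -0.01 for ARPC2 and -0.03 for HNRNPD. At 10 µM against DMSO the called probe sets stood at 0.14, 0.09, -0.00 and -0.07, while CPT1A stood at 0.66 (adjusted p = 0.00953 by limma).

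Over all probe sets, 15 were higher on all 6 arrays than on any of the 9 (0.0275%), and 7 were lower on all 6 (0.0128%). Those higher included CPT1A with 2 probe sets, RABGEF1P1, a pseudogene, ENDOD1, IGF2R, the mannose 6-phosphate receptor, and PIAS1, a SUMO ligase. Those lower included HNRNPD, RFC2, a subunit of the clamp loader, and CRTC1, a CREB coactivator. These genes were picked by their separation after the values were seen. With so many probe sets, some are expected to separate fully by chance alone. The counts of 15 and 7 were not tested against that chance number. By themselves they therefore do not show that any of the genes listed responded.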

How the data were processed

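Expression was measured on Affymetrix HT HG-U133+ PM arrays. The authors deposited log2 values normalized by RMA, separately for each chemical, and the submitters' processing notes also name Partek (versions not given in the sources used here). RMA sets the arrays of a chemical to a common distribution, so a shift shared by most transcripts would not be visible. The 90 columns hold 54715 probe sets, of which 102 control probe sets were left out. Platform annotation gave 1 gene symbol to 40914 of the 54613 tested, several to 864 and none to 12835. Per gene, lists used 1 probe set, the one with the highest mean. Arrays have no read depth, and 3 arrays per concentration limit the precision.

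Groups were taken from the labels. Differences were fitted with limma 3.58.1 in R 4.3.3 (lmFit and eBayes), with the replicate number as a block, and p-values were adjusted by Benjamini-Hochberg over 54613 probe sets at 0.05. The methods describe replicates as separate batches of cells, but no label names a batch, and p-values measure the spread between these arrays. Run numbers of the imazalil columns lay within 169 to 196 for replicate number 1, 197 to 224 for number 2 and 225 to 252 for number 3. Whether these blocks match batches of cells is not stated. Differences between chemicals were interaction terms. The fit was tested on simulated data with independent noise and added changes at least as large as any in the main comparison. That test does not show how well smaller changes are found. Named were the 10 higher and 10 lower genes with the smallest p, fixed genes of interest and the most different members of lists. The comparison, members and lists were chosen with earlier results of these data known. Alternatives covered the variance model, block, scaling, array weights, dim probe sets, the reference and left-out arrays. Of 341 list genes 317 were measured.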

Additional observations from a re-analysis of the deposited data

Results flagged for a closer look

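Of 116 sets of 6 or 9 arrays examined, 3 held an array far from the others, where chance alone would give about 5% of sets. All were among the 9 arrays at the lowest concentrations. For TBC1D2B the array at 0.003 µM of replicate number 2 read 3.38, with the nearest at 2.99 (gap 0.686 of the range). For MLX the array at 0.01 µM of number 3 read 9.04, with the nearest at 8.87 (gap 0.718). For ARRDC4 the array at 0.003 µM of number 2 read 4.54, with the nearest at 4.98 (gap 0.555).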

How the results depend on the processing

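The count of 0 for 1 and 3 µM held in 31 of 33 settings, with 1267 to 4629 probe sets at an unadjusted p under 0.05. It became 6 with trend and robust and 7 with trend alone, the latter chosen after seeing the data. Without the replicate block it stayed at 0, and with trend and robust but no replicate block 2 were called. Deviations of same-numbered arrays correlated at -0.07 to 0.22 over 30 pairs, 21 of them at or under 0.1, and 14 of 15 arrays lay closest to one of their own number. The block stands in the fits because the comparison specifies it, and it treats same-numbered arrays as matched, which no label states. Also chosen after seeing the data, trend and robust gave 4 for 3 µM, 1 against 0.03 to 0.3 µM, 1 for imazalil minus 2,4-D and 1 for imazalil minus fenbuconazole. Under trend and robust, leaving out arrays gave 0 to 88 calls: 0 without replicate 1, 0 without replicate 2 and 88 without replicate 3. Of the 88, 5 were among the 6, and 87 were higher at 1 and 3 µM. Those higher included PRRC2C, LRRFIP1 and TMTC3, and several probe sets each of MALAT1 and TPR. Leaving out single arrays gave 1 to 30. Without replicates in turn, imazalil minus 2,4-D called 0 to 1. Of 1761 results for single probe sets, 1718 kept direction and side of the threshold, 6 passed only with another setting and 37 changed sign, and 50 of 58 probe sets never changed sign. With DMSO arrays added to the reference, RORA was -0.0802, TRIB3 -0.0137, CYP51A1 0.00248 and INSIG1 0.00514. Without 0.001 µM, RORA was -0.0421 and TRIB3 -0.0287, and without 0.003 µM INSIG1 was 0.0364. TRIB3 was -0.00314 with array weights and -0.00864 with equal array medians, and INSIG1 0.00105 after a second quantile normalization. Leaving out arrays gave ranges of -0.142 to 0.00658 for CYP1A1, -0.0542 to 0.064 for CYP51A1, -0.0232 to 0.101 for ETV4, -0.0305 to 0.0271 for INSIG1, -0.0122 to 0.171 for OSGIN1, -0.0515 to 0.0685 for RORA, -0.0378 to 0.0327 for TRIB3 and -0.161 to 0.0565 for the dimmest TXNIP probe set. The cause was not tested. Probe sets near the median level of 3.34 carry little signal over background.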
